A study of Mus musculus with 32 samples.

Results

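The genes described here are the 8 sarcomeric myosin heavy chain genes Myh1, Myh2, Myh3, Myh4, Myh6, Myh7, Myh7b and Myh8, chosen by their symbols among 48586 genes with a read count in every library. All 8 were found under their symbols. They were followed through 32 libraries of total RNA from 3 hind-leg muscles of male mice no older than 3 months: the gastrocnemius of the calf, the quadriceps of the thigh and the tibialis of the shin. Each muscle was sampled in wild-type mice, in Gne M743T/M743T knock-in mice labelled healthy, and in Gne M743T/M743T knock-in mice labelled sick. Gne encodes the enzyme that starts sialic acid synthesis, and the knock-in carries a point change in it, so the level of its transcript does not check the genotype. The labels do not give the signs by which a mouse was called sick. There were 4 wild-type, 3 healthy and 3 sick libraries of gastrocnemius, and 4, 4 and 3 of each other muscle. The series states 4 mice for each state, fewer than the libraries of a state, so libraries of different muscles must in part come from the same mice, and the labels do not say which. Comparisons between muscles treat them as separate.

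Myosin heavy chains are the motor proteins of the thick filament, and the isoform a fibre makes sets how fast it shortens and how it spends ATP. In adult mouse limb muscle Myh7 marks slow type I fibres, Myh2 the oxidative fast type IIA, Myh1 type IIX and Myh4 the fast glycolytic type IIB, while Myh3 (embryonic) and Myh8 (perinatal) are made during development and regeneration. Myh6 is the alpha chain of the heart, and Myh7b is an ancient slow-type gene that is transcribed at low levels in skeletal and cardiac muscle.

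The fast and developmental genes stand in a row on chromosome 11 of GRCm38, plus strand, all protein coding: Myh3 at chr11:67078300-67102291, Myh2 at chr11:67171027-67197517, Myh1 at chr11:67200052-67224575, Myh4 at chr11:67238029-67260446 and Myh8 at chr11:67277124-67308634. Myh6 at chr14:54941921-54966927 and Myh7 at chr14:54970684-54994626 lie side by side on the minus strand, and Myh7b lies at chr2:155611212-155634307 on the plus strand. The coding sequences are close copies in part. Myh7 and Myh6 shared 91.7% of aligned coding bases, Myh2 and Myh1 91.1%, and Myh1 and Myh4 90.3%, whereas Myh7b shared 69.5 to 72.9% with any other member. Of all 50-base windows of the transcripts of Myh1, 25.40% also occurred in another of the 8 genes or in Myh13, the next gene of the chromosome 11 cluster, against 22.90% for Myh2, 20.16% for Myh6, 18.90% for Myh4, 15.59% for Myh7, 11.05% for Myh8, 4.76% for Myh3 and 0% for Myh7b. How the submitters' counting treated reads that fit several genes is not given in the sources used here, so low counts of a gene with an abundant near copy (Myh6 beside Myh7, Myh8 beside Myh1) are uncertain. Antisense or opposite-strand genes overlap Myh1 (Myhas), Myh2 (9430073C21Rik), Myh6, Myh7 and Myh7b, and the strand setting of the counting is likewise not given.

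The adult fast genes also resemble each other upstream of their starts. The stretches below are shown because Myh1 and Myh8 rose and fell together across the libraries while Myh4 did not follow them, and all 3 genes and Myh2 carry nearly the same 20 bases there. They come from the RefSeq promoter table (GRCm38.p6, plus strand, 250 bases before each start) and cover chr11:67170857-67170956 for Myh2, chr11:67199897-67199996 for Myh1, chr11:67237609-67237708 for Myh4 and chr11:67277025-67277123 for Myh8. Capitals mark a run that Myh2, Myh1 and Myh4 share, and in Myh8 the stretch closest to it.
Myh2: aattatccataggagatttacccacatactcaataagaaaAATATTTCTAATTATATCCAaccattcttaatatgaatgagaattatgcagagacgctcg
Myh1: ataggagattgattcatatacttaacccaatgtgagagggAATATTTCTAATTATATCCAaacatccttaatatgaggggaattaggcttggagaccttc
Myh4: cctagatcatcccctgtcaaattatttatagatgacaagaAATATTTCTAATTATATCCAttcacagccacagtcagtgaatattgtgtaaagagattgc
Myh8: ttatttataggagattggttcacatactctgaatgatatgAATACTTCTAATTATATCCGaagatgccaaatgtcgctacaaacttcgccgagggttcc
The run ends 111 bases before the RefSeq start in Myh2, 146 before it in Myh1 and 144 before it in Myh4. For Myh1 and Myh4 the RefSeq start differs from the gene start given above, so these distances do not follow from those coordinates. Searched as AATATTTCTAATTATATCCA on both strands, it occurred in 3 of 32851 RefSeq promoters of this length (0.00913%), those of Myh1, Myh2 and Myh4. The stretch in Myh8 differs from it by T5C and A20G, counted from 1 at the 5′ end of the run. A further run, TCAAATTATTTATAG, occurred in 3 promoters (0.00913%), those of Myh1, Myh4 and Myh8. These are matches of letters only.

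Libraries held 7685164 to 42588233 counted reads. Levels are given as CPM, counts per 1000000 of a library's total after scaling by the trimmed mean of M-values, and as CPM per kb of exon where genes are compared with each other. Skeletal fibre markers (Acta1, Ckm, Des, Ttn) summed to 44785 to 92393 CPM in all libraries. Some libraries stood apart. All 4 wild-type tibialis libraries carried markers of kidney tubule (6 genes, 54.1 to 73.6 CPM in sum), as did healthy gastrocnemius replicate 2 (21.4 CPM), while every other library had at most 1.54 CPM. This touches every comparison with the wild-type tibialis and, through 1 library, those with the healthy gastrocnemius. Its part in them was not tested. Sick quadriceps replicate 4 and sick tibialis replicates 1 and 4 had more of the non-coding gene 2310065F04Rik than the other sick libraries, nearer to wild type. Values without them are given as descriptions only, because this gene was itself called lower in the sick gastrocnemius and quadriceps. The 8 listed cardiac markers were not alike. Myl7 was at 0 in 31 of 32 libraries, Nppb in 28, Nppa in 19, Mybpc3 in 12 and Tnni3 in 2. Their highest values were 0.134, 0.113, 0.216, 0.241 and 0.586 CPM in that order. Ryr2, Tnnt2 and Sln had reads in every library and reached 2.89, 11.3 and 141 CPM. Tnnt2 and Sln are also on the list of embryonic and regeneration genes.

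Myh4 was the most abundant member everywhere and the gene with the highest median CPM in the whole table. Its CPM ran from 18556 to 77138, a 4.16-fold range, and it took 1.83 to 7.48% of all counted reads. The 8 genes together took 3.09 to 7.74%. Per kb of exon, the medians over the 32 libraries were 8371 CPM for Myh4, 1118 for Myh1, 138 for Myh2, 3.47 for Myh8, 1.87 for Myh3, 0.589 for Myh6, 0.573 for Myh7b and 0.173 for Myh7. The ranges of Myh4 and Myh1 did not overlap on this scale, and neither did those of Myh2 and the developmental genes, but Myh6, Myh7 and Myh7b overlapped one another widely. Myh7 was the most variable, from 0.120 to 1872 CPM (1 to 16564 reads), and Myh6 came next, from 0.144 to 469 CPM.

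**Figure D1:**
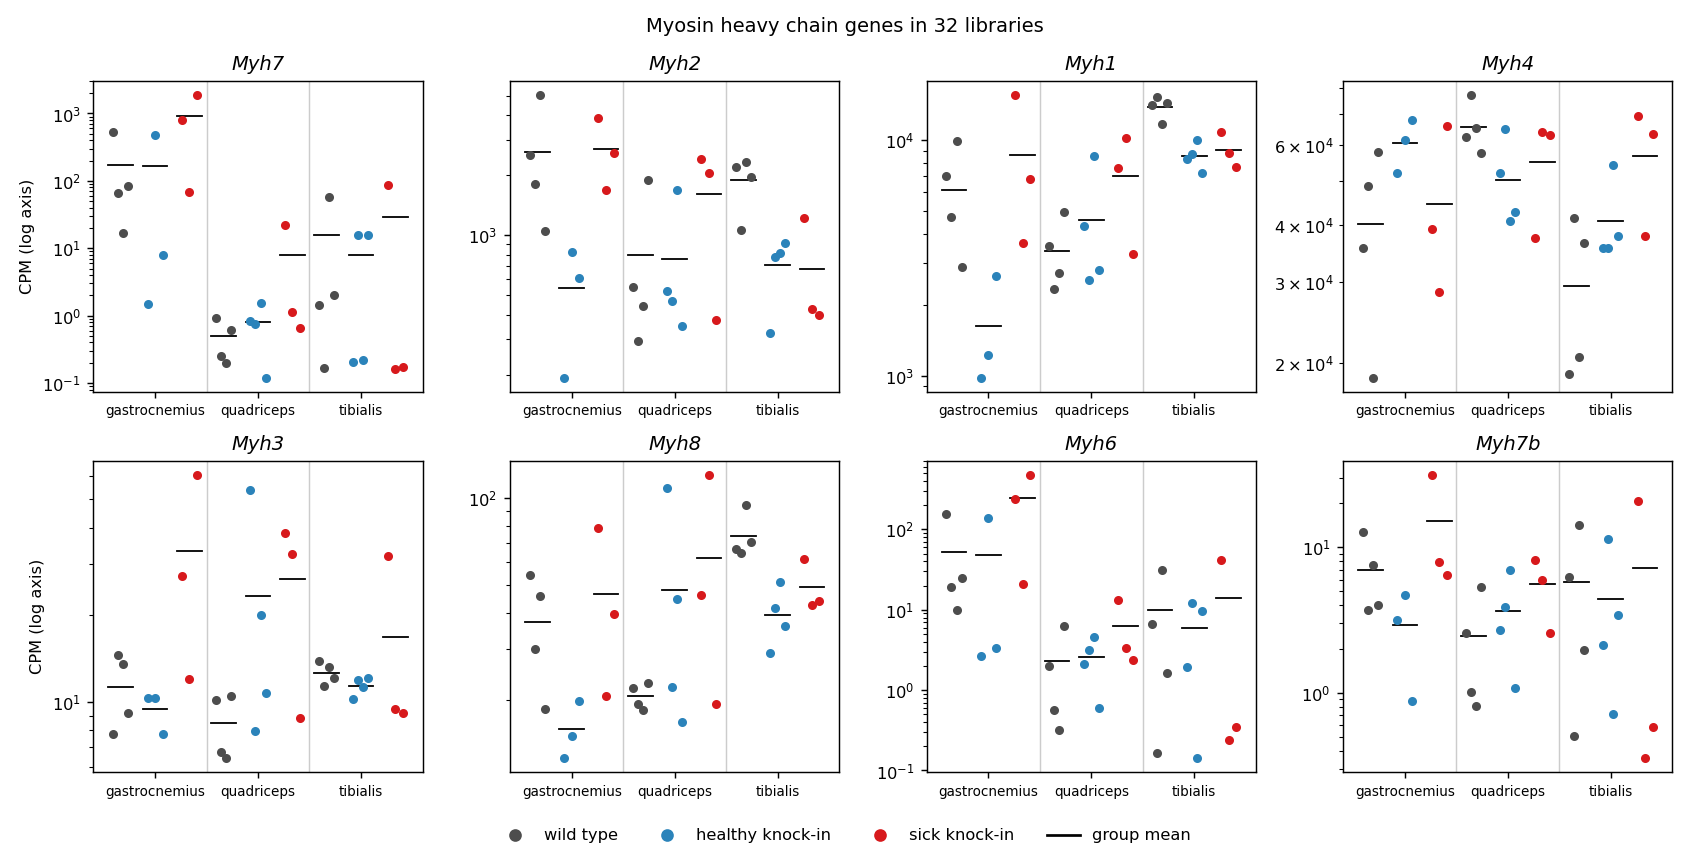
CPM of each member (log axis) in the 32 libraries, grouped by muscle and coloured by state, with 1 point per library and a black line at the group mean. Myh4 lies between 18556 and 77138 CPM in all groups, whereas Myh7 and Myh6 spread over several orders of magnitude within single groups.

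Among wild-type muscles, Myh4 was lowest in the tibialis and highest in the quadriceps. The 4 wild-type quadriceps libraries had 62342, 77138, 65203 and 57534 CPM, the gastrocnemius 35608, 48749, 18556 and 57948 CPM, and the tibialis 18913, 41533, 20598 and 36635 CPM. The quadriceps libraries all lay above the tibialis libraries, and the gastrocnemius overlapped both. In knock-in mice Myh4 had 52068, 61662 and 68214 CPM in the healthy gastrocnemius, and 39179, 28541 and 66023 CPM in the sick. In the quadriceps it had 51967, 64891, 40980 and 42754 CPM in healthy and 37539, 64188 and 63201 CPM in sick mice. In the tibialis it had 35667, 35733, 54323 and 37993 CPM in healthy and 69393, 37834 and 63389 CPM in sick mice. Ordered by mean, the groups ran from 65554 ± 8345 CPM (SD, n = 4) in the wild-type quadriceps to 29420 ± 11358 CPM (SD, n = 4) in the wild-type tibialis, and each group overlapped its neighbours in that order. The same held for each of the other 7 members when groups were ordered by mean CPM, except that the wild-type tibialis, highest for Myh1 (13814 ± 1464 CPM, SD, n = 4), lay clear of the next, the sick tibialis (9079 ± 1578 CPM, SD, n = 3).

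Myh1, the type IIX gene, was the second of the adult genes and had the opposite order among wild-type muscles. The wild-type tibialis had 14104, 15115, 11717 and 14320 CPM, the gastrocnemius 7007, 4711, 9901 and 2887 CPM, and the quadriceps 3540, 2332, 2731 and 4946 CPM. All wild-type tibialis libraries lay above those of both other muscles. Within the gastrocnemius the healthy knock-in libraries were lowest, with 981, 1228 and 2638 CPM, and the sick libraries had 15464, 3649 and 6805 CPM. In the quadriceps the healthy libraries had 4325, 2549, 8555 and 2800 CPM and the sick ones 7586, 10168 and 3291 CPM. In the tibialis the healthy libraries had 8295, 8735, 9981 and 7203 CPM and the sick ones 10786, 8776 and 7674 CPM, all below the wild type.

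Myh2, the type IIA gene, was high in the wild-type gastrocnemius and tibialis. It had 2531, 1811, 5045 and 1052 CPM in the wild-type gastrocnemius, 548, 295, 443 and 1885 CPM in the quadriceps, and 2199, 1062, 2334 and 1958 CPM in the tibialis. One quadriceps library, replicate 4, stood well above its 3 partners. Healthy knock-in mice had 193, 825 and 608 CPM in the gastrocnemius, 527, 466, 1683 and 352 CPM in the quadriceps, and 323, 775, 813 and 915 CPM in the tibialis. Sick mice had 3880, 1680 and 2597 CPM in the gastrocnemius, 2401, 2043 and 375 CPM in the quadriceps, and 1217, 426 and 398 CPM in the tibialis. In the gastrocnemius the healthy knock-in libraries lay below all wild-type and all sick libraries.

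Expressed as shares of the 4 adult transcripts per kb, Myh4 made up 55.4 to 97.9% of the sum in single libraries. In wild type its share was 94.2 ± 2.93% in the quadriceps, 80.1 ± 16.1% in the gastrocnemius and 65.1 ± 8.28% in the tibialis (SD, n = 4 each), and Myh1 filled most of the rest, with 30.9 ± 6.50% in the tibialis. In the tibialis of healthy knock-in mice the Myh4 share was 82.3 ± 1.91% (SD, n = 4), and in that of sick mice 85.5 ± 3.99% (SD, n = 3). Both ranges lay above all wild-type tibialis libraries (exact permutation test, two-sided: p = 0.0286 for healthy and 0.0571 for sick, the smallest p each allows). In the gastrocnemius the healthy share was 96.8 ± 1.10% (SD, n = 3), above every wild-type library (exact p = 0.0571, the smallest possible) and every sick one, whose mean was 80.1 ± 10.5% (exact p = 0.1, the smallest that 3 against 3 allows). The sick and wild-type gastrocnemius had nearly the same mean share and overlapped, but without wild-type replicate 3 the sick mean was lower (a difference of -7.47 percentage points). The 48 exact permutation tests could not give a Benjamini-Hochberg adjusted p under 0.0623 with groups of this size, so no share could pass. The lowest found was 0.183.

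**Figure D2:**
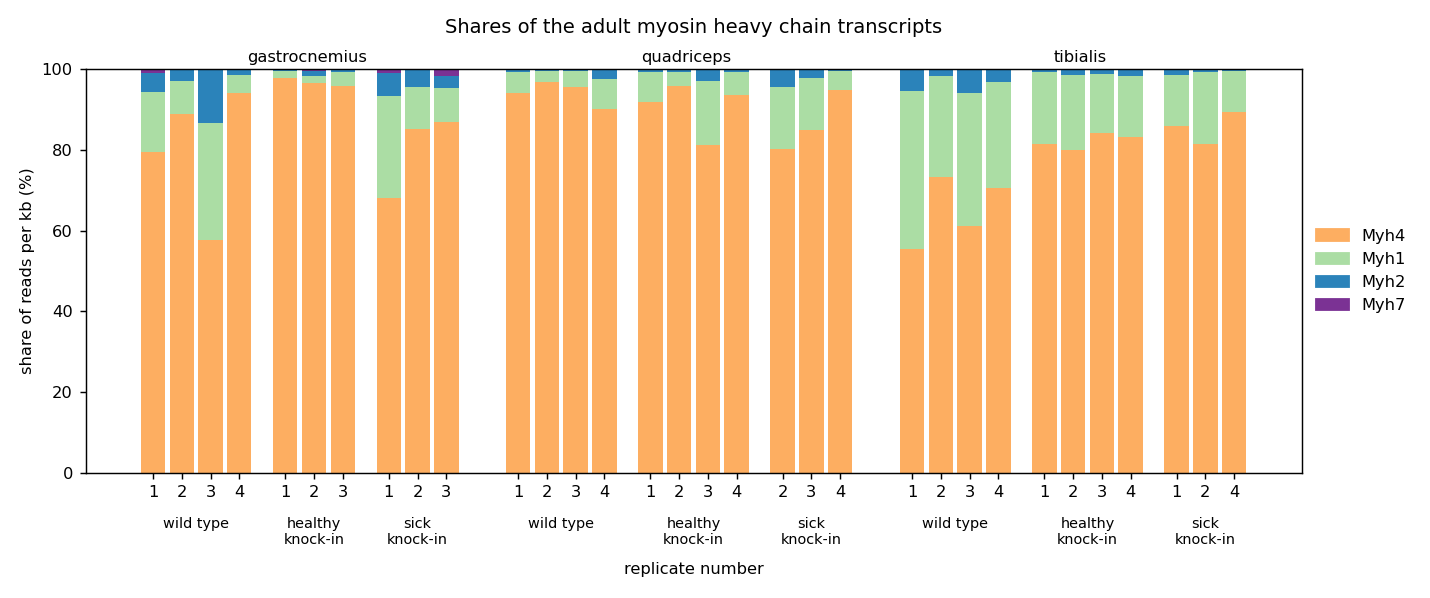
Stacked bars of the share of Myh4, Myh1, Myh2 and Myh7 in their summed reads per kb (percent), with 1 bar per library, numbered by replicate within each group. Myh4 fills 55.4 to 97.9% of a bar, and the wild-type tibialis bars hold the largest group mean share of Myh1 (30.9%).

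Myh7, the slow type I gene, was concentrated in the gastrocnemius. The wild-type gastrocnemius had 527, 66.2, 17.1 and 85.3 CPM, and the wild-type quadriceps 0.910, 0.255, 0.198 and 0.614 CPM, which rest on 7 to 17 reads per library. The wild-type tibialis had 1.46, 0.167, 58.6 and 1.995 CPM, so that replicate 3 alone held nearly all of it. Libraries of one group could differ by orders of magnitude. Healthy knock-in mice had 1.47, 482 and 8.05 CPM in the gastrocnemius, 0.821, 0.759, 1.52 and 0.120 CPM in the quadriceps, and 0.206, 15.9, 0.216 and 15.8 CPM in the tibialis. Sick mice had 794, 68.2 and 1872 CPM in the gastrocnemius, 22.1, 1.12 and 0.647 CPM in the quadriceps, and 86.9, 0.159 and 0.175 CPM in the tibialis. Even at its highest, Myh7 made up 1.72% of the adult transcripts per kb.

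Myh6, the neighbour of Myh7, was high where Myh7 was high. In the 13 libraries with over 10 CPM of Myh7, Myh6 had less than Myh7, and in 15 libraries with 0.1205 to 1.516 CPM of Myh7 it had more. It had 154, 19.1, 9.98 and 24.6 CPM in the wild-type gastrocnemius, 1.98, 0.567, 0.322 and 6.31 CPM in the quadriceps, and 6.57, 0.167, 31.1 and 1.64 CPM in the tibialis. In the gastrocnemius it had 2.65, 137 and 3.38 CPM in healthy and 237, 21.1 and 469 CPM in sick mice. In each gastrocnemius group the library with the most Myh7 also had the most Myh6, whereas in the wild-type quadriceps Myh7 was highest in replicate 1 and Myh6 in replicate 4. The reads shared by these near copies were not separated here. In the other muscles it ranged from 0.602 to 4.55 CPM in the healthy and 2.34 to 13.3 CPM in the sick quadriceps, and from 0.144 to 12.1 CPM in the healthy and 0.238 to 41.9 CPM in the sick tibialis.

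Of the developmental genes, Myh3 was low and even in wild type. It had 7.77, 14.5, 13.6 and 9.18 CPM in the wild-type gastrocnemius, 10.2, 6.72, 6.44 and 10.5 CPM in the quadriceps, and 13.9, 11.4, 13.3 and 12.1 CPM in the tibialis. Sick libraries were split. They had 27.3, 11.98 and 60.5 CPM in the gastrocnemius, 38.3, 32.4 and 8.81 CPM in the quadriceps, and 31.9, 9.45 and 9.20 CPM in the tibialis, so 5 of the 9 stood above 27 CPM and the others near wild type. Healthy knock-in mice had 7.78 to 10.4 CPM in the gastrocnemius and 10.2 to 12.1 CPM in the tibialis, but 54.1, 7.96, 19.95 and 10.7 CPM in the quadriceps.

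Myh8, the perinatal gene, was highest in the wild-type tibialis, with 67.0, 64.6, 94.5 and 70.7 CPM. The wild-type gastrocnemius had 54.4, 29.97, 45.7 and 18.6 CPM and the quadriceps 21.99, 19.3, 18.5 and 23.0 CPM, all below the tibialis. In the gastrocnemius the healthy libraries had 12.6, 15 and 19.9 CPM and the sick ones 79.1, 20.8 and 39.9 CPM, without overlap. In the quadriceps the healthy libraries had 109, 22.3, 44.8 and 16.8 CPM and the sick ones 46.3, 120 and 19.4 CPM. In the tibialis the healthy libraries had 29.2 to 51.1 CPM and the sick ones 42.6 to 61.6 CPM, both below the wild type.

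Myh7b was scarce throughout, at 0.357 to 31.2 CPM (6 to 442 reads). It had 12.6, 3.71, 7.498 and 3.99 CPM in the wild-type gastrocnemius, 3.16, 4.69 and 0.879 CPM in the healthy and 31.2, 7.88 and 6.44 CPM in the sick. The sick libraries lay above the healthy ones and overlapped the wild type. Its range was 0.817 to 8.22 CPM in the quadriceps and 0.357 to 20.7 CPM in the tibialis over the states.

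Between wild-type muscles, Myh1 and Myh8 were higher in the tibialis than in the quadriceps. The log2 fold change was 2.07 ± 0.34 (SE) for Myh1 and 1.86 ± 0.27 for Myh8, with limma-voom adjusted p-values of 0.00425 and 0.00195, and both passed the threshold of 0.05 in all 8 fits that left out 1 library. These were 2 of the 8 members, both higher, while 5.67% of the 14708 genes tested were called in this comparison (3.58% higher). The libraries of Myh1, Myh3 and Myh8 in the tibialis lay above those of the quadriceps without overlap and those of Myh4 below it, 4 of 8 members against 17% of all genes tested. Myh4 was lower by a log2 fold change of -1.21 ± 0.34 (limma adjusted p = 0.0575), and with the replicate number as a block it was called, at an adjusted p of 0.0219, in a fit that called 10.9% of genes. Myh2 was not called (1.52 ± 0.56, limma adjusted p = 0.132), but without wild-type quadriceps replicate 4 it was (2.12, adjusted p = 0.0136). Markers of other cell types differed between these muscles too. Adipocyte markers were lower in the tibialis in 5 of 5 genes, with sums of 4.94 to 29 CPM against 74 to 123 CPM, the kidney markers were higher in 6 of 6, and their part in the members' differences was not tested. In bulk tissue, fewer fibres of a type and less RNA per fibre cannot be told apart.

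No member passed in the wild-type quadriceps against the gastrocnemius, where limma-voom called 1.07% of genes, and all 8 had an unadjusted p under 0.05 (1 higher, 7 lower). The share of all genes at that unadjusted p was not counted, here or in the comparisons below. Such counts of members are therefore descriptions and do not set the members apart from other genes. Myh7 had the largest difference, -7.86 ± 1.92 on the log2 scale (limma adjusted p = 0.0909), and Myh6 followed with -5.07 ± 1.39 (adjusted p = 0.147). The libraries of these 2 slow and cardiac genes did not overlap between the muscles, against 5.64% of all genes tested. With the replicate number as a block 1 member, Myh6, was called (-4.94, limma adjusted p = 0.0366), where 1.72% of genes were. Without gastrocnemius replicate 4 Myh8 was called (-1.05, adjusted p = 0.0234), and without quadriceps replicate 4 Myh2 (-2.40, adjusted p = 0.0231). Markers of Schwann cells, which ensheath nerve, moved with this comparison: 5 of 5 were lower in the quadriceps, with sums of 49.4 to 77.8 CPM against 376 to 893 CPM, and their part in it was not tested.

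In the wild-type tibialis against the gastrocnemius no member passed either, with 2.58% of genes called by limma-voom and 4 members at an unadjusted p under 0.05, but several came close to the threshold and crossed it under other settings. Myh8 was nearest (1.09 ± 0.27, limma adjusted p = 0.0506), then Myh1 (1.34 ± 0.34, 0.0598) and Myh7 (-5.13 ± 1.34, 0.0669). Myh1 and Myh8 did not overlap between these muscles, against 7.97% of all genes tested. Myh8 was called with median-of-ratios scaling (0.047) and without the filter on low counts (0.0329). With the replicate number as a block, Myh8 (1.09, limma adjusted p = 0.034) and Myh7 (-5.01, 0.0461) were called. Without gastrocnemius replicate 3 Myh8, Myh1 and Myh7 all passed, with limma adjusted p-values of 0.0384, 0.0175 and 0.0272. Without gastrocnemius replicate 1 Myh8 passed alone (1.30, adjusted p = 0.0143). Schwann cell markers were lower in the tibialis in 5 of 5 genes (78.6 to 195 CPM in sum against 376 to 893 CPM) and kidney markers higher in 6 of 6, and their part was not tested.

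**Figure D3:**
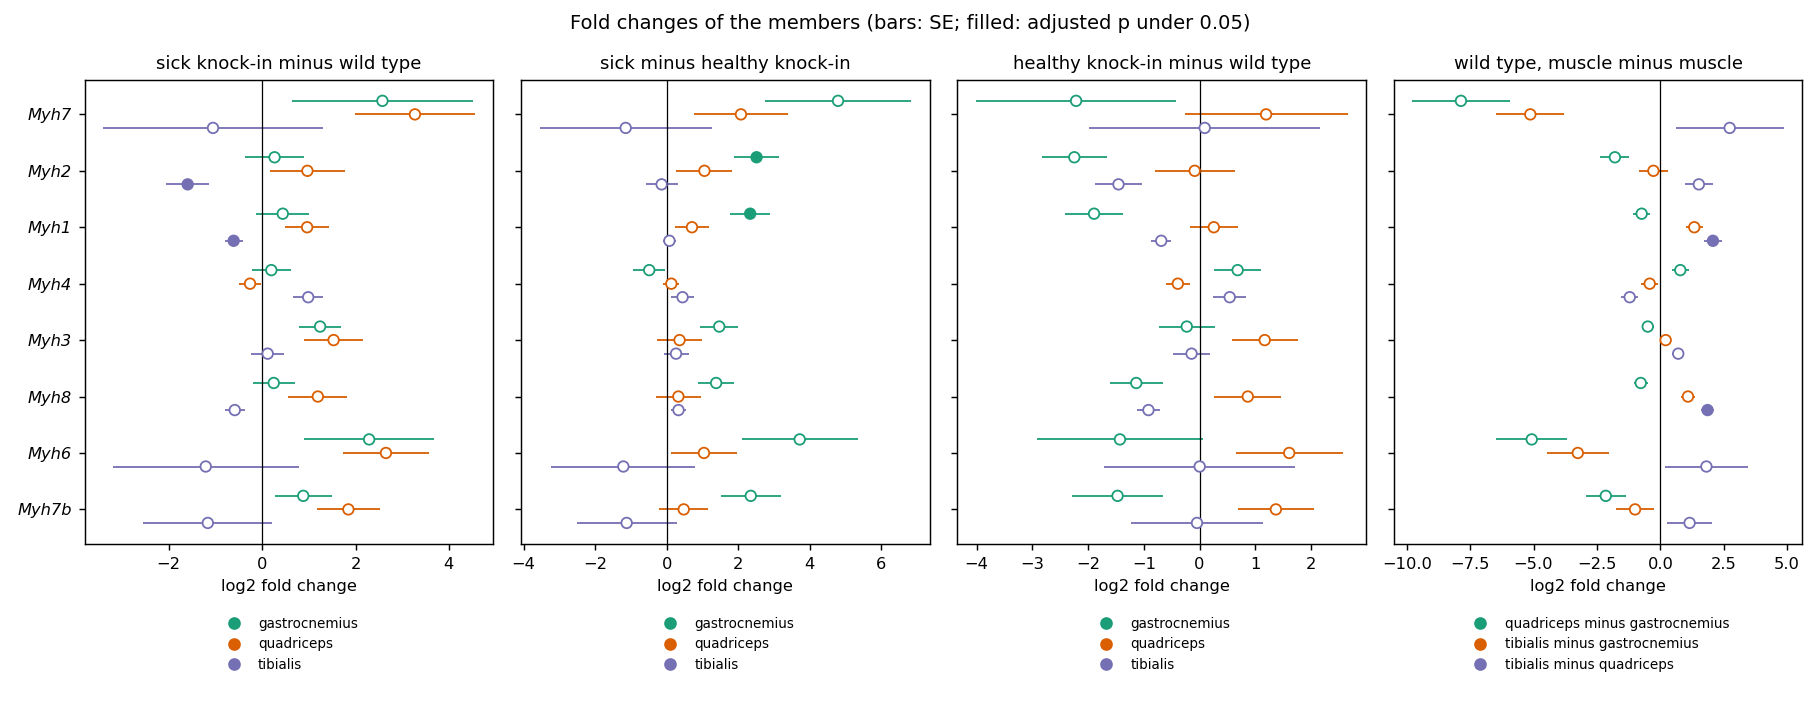
Log2 fold changes of the 8 members by limma-voom, with the SE as bars, for sick against wild type, sick against healthy knock-in, healthy knock-in against wild type, and between wild-type muscles, on x axes of different range. Filled points are past an adjusted p of 0.05: Myh2 and Myh1 in the tibialis of sick against wild-type mice, the same genes in the gastrocnemius of sick against healthy mice, and Myh1 and Myh8 in the wild-type tibialis against the quadriceps.

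The largest state effect on the adult fast genes was seen in the gastrocnemius of sick against healthy knock-in mice. Myh2 rose by a log2 fold change of 2.51 ± 0.62 (SE) and Myh1 by 2.33 ± 0.56, with limma-voom adjusted p-values of 0.0252 and 0.0215. These were 2 of the 8 members, against 14.1% of the 14155 genes tested (7.17% higher), and 7 of 8 had an unadjusted p under 0.05, all higher, the exception being Myh4 (-0.49 ± 0.44). Of the 8 members, 5 did not overlap between sick and healthy libraries (Myh1, Myh2, Myh3, Myh7b and Myh8), against 37.5% of all genes tested. The median over the members was 2.34 and that over all genes 0.00662. Not called were Myh7 (4.79 ± 2.04, limma adjusted p = 0.138), Myh6 (3.72 ± 1.62, 0.146), Myh7b (2.35 ± 0.84, 0.0868), Myh3 (1.47 ± 0.52, 0.0858) and Myh8 (1.38 ± 0.50, 0.0911). These calls changed with single libraries. Myh2 kept its call only without healthy replicate 2 (adjusted p = 0.0211), with 0.0514 to 0.0648 in the other 5 fits that left out 1 library. Myh1 lost its call without healthy replicate 1 (0.0729), healthy replicate 2 (0.0577) or sick replicate 3 (0.0561). Without sick replicate 2, Myh3 and Myh8 were called (0.0172 and 0.0439), and without healthy replicate 2 so was Myh7 (7.17, 0.0397). Healthy replicate 2 is the gastrocnemius library with kidney markers, whose part here was not tested. Without the filter on low counts both Myh2 and Myh1 lost their calls (limma adjusted p = 0.160 and 0.165), and in a fit of all 32 libraries Myh7 was called (4.74, 0.0403). With the replicate number as a block, Myh7b (2.41, limma adjusted p = 0.0265) and Myh8 (1.42, 0.0369) were called beside Myh2 and Myh1.

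Against wild type, no member was called in the sick gastrocnemius by limma-voom, where 14.7% of genes were called, none was without overlap (27.2% of all genes), and 1 had an unadjusted p under 0.05: Myh3, at 1.24 ± 0.45 (adjusted p = 0.0889). Without sick replicate 2 Myh3 was called (1.88, limma adjusted p = 0.0208). The log2 fold changes of the adult genes were small beside their errors: Myh2 0.27 ± 0.64, Myh1 0.44 ± 0.56 and Myh4 0.20 ± 0.41, with Myh7 at 2.58 ± 1.94 (limma adjusted p = 0.377 to 0.800 for these 4). Healthy knock-in libraries against wild type gave no call either, where limma-voom called 0.00706% of genes. There, 3 members had an unadjusted p under 0.05, all lower: Myh2 (-2.25 ± 0.59, limma adjusted p = 0.522), Myh1 (-1.89 ± 0.52, 0.522) and Myh8 (-1.13 ± 0.48, 0.643). Myh1 and Myh2 did not overlap between healthy and wild-type libraries, 2 of 8 members against 9.12% of all genes. These 3 comparisons share libraries in pairs, so a low healthy group enters 2 of them.

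In the quadriceps, no member was called in any comparison of states by limma-voom. For sick against wild type 18.1% of the 13781 genes tested were called, and 4 members had an unadjusted p under 0.05, all higher: Myh7 (3.27 ± 1.28, adjusted p = 0.0937), Myh6 (2.65 ± 0.91, 0.0644), Myh7b (1.85 ± 0.68, 0.0767) and Myh3 (1.53 ± 0.62, 0.104). The rise of Myh7 rested mainly on sick replicate 2, with 419 reads, beside 9 and 8 in the other sick libraries and 7 to 17 in wild type. Over the fits that left out 1 library, Myh7 ran from 1.26 to 4.43 (limma adjusted p = 0.0248 to 0.414). The adult fast genes had log2 fold changes of 0.97 ± 0.80 for Myh2, 0.96 ± 0.48 for Myh1 and -0.26 ± 0.23 for Myh4. This count changed with single libraries. Without sick replicate 4, 6 members were called and with them 29.4% of 14445 genes. Among these members were Myh3 (2.20, limma adjusted p = 0.0138), Myh7b (2.34, 0.0247), Myh7 (4.43, 0.0248), Myh6 (3.26, 0.0265) and Myh1 (1.43, 0.0433). Replicate 4 had 119 CPM of 2310065F04Rik, below the wild-type quadriceps (161 to 225 CPM) but above the other sick quadriceps libraries. That gene itself fell in the sick quadriceps, so the higher counts without replicate 4 are not separate evidence of a sick effect. Without wild-type replicate 4, Myh6 (3.13, limma adjusted p = 0.0421) and Myh7b (2.17, 0.0480) were called. For sick against healthy knock-in mice 17.6% of genes and for healthy against wild type 0.0363% were called, and no member had an unadjusted p under 0.05 in either. In these 3 quadriceps comparisons no member was without overlap between the groups, against 30.2% of all genes for sick and wild type, 24% for sick and healthy and 3.85% for healthy and wild type.

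In the tibialis the type IIA and IIX genes were lower on average in both knock-in states than in wild type, and were called only for sick mice. Sick and healthy mice differed little, by -0.14 ± 0.45 for Myh2 and 0.08 ± 0.19 for Myh1 on the log2 scale. Against wild type, Myh2 fell by 1.59 ± 0.46 and Myh1 by 0.61 ± 0.19 in sick mice, with limma-voom adjusted p-values of 0.0343 and 0.0458. Myh4 had 0.99 ± 0.32 (adjusted p = 0.0526). These were 2 of 8 members against 18.1% of the 14520 genes tested (9.61% lower). In all, 4 had an unadjusted p under 0.05, Myh8 (-0.59 ± 0.22, limma adjusted p = 0.0743) being the fourth. Myh1 and Myh8 did not overlap between sick and wild-type libraries, against 30.8% of all genes. Myh2 kept its call only without wild-type replicate 2 (0.0402) or sick replicate 1 (0.0208), and Myh1 only without wild-type replicate 3 (0.0393) or sick replicate 1 (0.0457). In the other fits that left out 1 library the adjusted p was 0.0640 to 0.133 for Myh2 and 0.0869 to 0.119 for Myh1. Myh4 was called without wild-type replicate 2 (0.0434), wild-type replicate 4 (0.0490) or sick replicate 2 (0.0436). Both calls ended in a fit of these groups alone (limma adjusted p = 0.0518 for Myh2 and 0.110 for Myh1) and in a fit of all 32 libraries (0.0886 and 0.367), and that of Myh2 without the filter on low counts (0.102). With the replicate number as a block both calls ended too (limma adjusted p = 0.102 for Myh2 and 0.106 for Myh1). Median-of-ratios scaling ended the call of Myh1 (0.0523) and gave one to Myh4 (0.0496). Without sick replicate 4, the other library near wild type in 2310065F04Rik, Myh2 had -1.30 (limma adjusted p = 0.0885) and Myh1 -0.49 (0.119).

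Myh1, Myh2 and Myh8 were also below wild type in every healthy knock-in tibialis library, without passing the test. No member was called by limma-voom, against 0.496% of genes, and 3 had an unadjusted p under 0.05, all lower: Myh8 (-0.92 ± 0.20, adjusted p = 0.108), Myh1 (-0.69 ± 0.18, 0.304) and Myh2 (-1.45 ± 0.43, 0.528). These 3 did not overlap with wild type, against 4.03% of all genes. The wild-type group enters both this comparison and that with sick mice. The kidney markers fell in 6 of 6 genes in both, and no value without them can be given because all 4 wild-type tibialis libraries carry them. Between sick and healthy knock-in tibialis, which carry at most 1.54 CPM of them, 11.3% of genes and no member were called by limma-voom, and no member had an unadjusted p under 0.05. None was without overlap there, against 28.9% of all genes.

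The difference of the sick effects between muscles was tested itself in all 32 libraries. No member passed in any of the 3 pairs of muscles by limma-voom, where 0%, 0.204% and 0.243% of 15229 genes were called for the quadriceps against the gastrocnemius, the tibialis against the gastrocnemius and the tibialis against the quadriceps. Between the tibialis and the quadriceps 4 members had an unadjusted p under 0.05: Myh2 (-2.53 ± 0.97), Myh8 (-1.77 ± 0.71), Myh1 (-1.55 ± 0.67) and Myh4 (1.26 ± 0.48), with limma adjusted p-values of 0.582 to 0.609. In the other pairs none had.

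Some markers of other cell types moved with the sick state. Against wild type, limma-voom called 14.7% of all genes in the gastrocnemius, 18.1% in the quadriceps and 18.1% in the tibialis. Fibro-adipogenic progenitor markers fell in 4 of 6 genes in the gastrocnemius, 3 of 6 in the quadriceps and 4 of 6 in the tibialis against wild type, and in the tibialis their sum was 265 to 474 CPM in sick and 599 to 910 CPM in wild-type mice. Tendon markers fell in 3, 1 and 3 of 5 genes, with 20.2 to 38.5 CPM in the sick and 83.7 to 369 CPM in the wild-type tibialis. Erythrocyte markers rose in 4 of 6 genes in the sick gastrocnemius (169 to 303 CPM against 78.9 to 162 CPM in wild type), and macrophage markers in 3 of 6 in the sick quadriceps (240 to 352 CPM against 115 to 179 CPM). Their part in the members' differences was not tested.

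Other genes of the contractile apparatus were taken from lists. The counts here and in the next paragraph stand beside the shares of all genes that limma-voom called. Against wild type these were 14.7% in the sick gastrocnemius, 18.1% in the quadriceps and 18.1% in the tibialis. For the sick against healthy gastrocnemius the share was 14.1%. Of 12 slow fibre genes, none was called in the sick gastrocnemius against wild type (median log2 fold change 1.10), 2 rose in the quadriceps (2.1) and 2 fell in the tibialis (-0.95), beside medians of all genes between -0.0453 and 0.000618. Against healthy knock-in mice 3 of 12 rose in the gastrocnemius (median 3.17). Myom3, a protein of the M-band, had 3.18 ± 0.71 there (limma adjusted p = 0.0169), but lost its call without healthy replicate 1 (0.0588), without healthy replicate 3 (0.0693) or without the filter on low counts (0.102). Of 13 fast fibre genes, 1 fell in the sick gastrocnemius, 1 fell in the sick quadriceps and 2 rose in the sick tibialis, each against wild type. Actn3, the alpha-actinin of fast fibres, rose by 1.36 ± 0.24 in the sick tibialis (limma adjusted p = 0.00672) and passed in all 7 fits that left out 1 library. In the wild-type quadriceps 2 of 12 slow fibre genes were lower than in the gastrocnemius (median -3.18), where 1.07% of all genes were called. Casq2, the slow and cardiac calsequestrin that binds calcium in the sarcoplasmic reticulum, was higher by 2.27 ± 0.34 in the wild-type tibialis than in the quadriceps (limma adjusted p = 0.00225, 8 of 8 such fits).

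Of 10 embryonic and regeneration genes tested, 1 rose in the sick gastrocnemius and 2 in the sick quadriceps against wild type, and none was called in the tibialis. Sln, which encodes sarcolipin, an inhibitor of the calcium pump, rose by 4.38 ± 0.65 in the sick gastrocnemius (limma adjusted p = 0.00462) and passed in all 7 fits that left out 1 library. It is also on the list of cardiac markers, whose sum was 34.4 to 65.8 CPM in the sick and 3.78 to 9.91 CPM in the wild-type gastrocnemius while Myl7, Nppa and Nppb were at or near 0. Of the 8 myosin light chain and light chain kinase genes tested, 1 rose in the sick gastrocnemius, none was called in the quadriceps, and 1 rose and 1 fell in the tibialis. Mylk2, the skeletal light chain kinase, rose by 1.07 ± 0.25 in the sick tibialis (limma adjusted p = 0.0181) and lost the call without sick replicate 2 (0.0582). Of 15 thick filament and folding genes, 1 rose and 1 fell in the gastrocnemius, 2 rose and 2 fell in the quadriceps, and 2 rose and 1 fell in the tibialis. Smyd2, a lysine methyltransferase, rose by 1.16 ± 0.18 in the sick quadriceps (limma adjusted p = 0.00671, 7 of 7 such fits). Of the 5 other myosin heavy chains tested, 1 rose in the gastrocnemius, 1 rose in the quadriceps and 1 fell in the tibialis. Myh10, a non-muscle myosin, fell by 1.23 ± 0.27 in the sick tibialis (limma adjusted p = 0.0150) and lost the call without sick replicate 2 (0.0644).

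Of 28 regulators of fibre type, 2 rose in the sick gastrocnemius, 2 rose and 1 fell in the quadriceps, and 6 rose and 2 fell in the tibialis, each against wild type. The shares of all genes called there were 14.7%, 18.1% and 18.1%. Against healthy knock-in mice 3 rose in the gastrocnemius, 7 rose and 1 fell in the quadriceps, and 3 rose and 1 fell in the tibialis. There, 14.1%, 17.6% and 11.3% of all genes were called. Ppargc1a, a coactivator of mitochondrial genes, rose by 2.05 ± 0.35 (limma adjusted p = 0.00528) and Vgll2, a TEAD cofactor, by 2.99 ± 0.56 (0.00869) in the sick against healthy gastrocnemius, in which Myh2 and Myh1 rose too. Both passed in all 6 fits that left out 1 library. Mef2c, a transcription factor of muscle genes, fell by 1.72 ± 0.32 in the sick quadriceps against wild type (limma adjusted p = 0.0113). In the sick tibialis Rbfox1, a splicing factor, rose by 1.09 ± 0.16 (limma adjusted p = 0.00247) and Eya4, a transcriptional coactivator, by 1.19 ± 0.27 (0.0162). These 3 also passed in all 7 fits that left out 1 library. In healthy knock-in against wild-type mice no gene of these 7 lists was called by limma-voom in any muscle.

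The non-coding genes of the chromosome 11 cluster were also measured. 2310065F04Rik lies between Myh3 and Myh2 at chr11:67112461-67120080 on the minus strand, is annotated as a lincRNA, and is described here because of its values. In the gastrocnemius it had 195, 163, 95.6 and 147 CPM in wild type, 90.2, 234 and 181 CPM in healthy knock-in and 44.4, 20.3 and 40.7 CPM in sick mice, which lay below all others. It fell in the sick gastrocnemius by 2.14 ± 0.37 against wild type (limma adjusted p = 0.0072, 7 of 7 fits that left out 1 library) and by 2.23 ± 0.39 against healthy mice (0.00626, 6 of 6). In the sick quadriceps it had 22.2, 33.6 and 119 CPM against 161 to 225 CPM in wild type, a log2 fold change of -2.06 ± 0.48 (limma adjusted p = 0.0206). That call was lost without wild-type replicate 1 (0.0543), wild-type replicate 3 (0.0553), sick replicate 2 (0.106) or sick replicate 3 (0.0706). In the sick tibialis it had 178, 37.1 and 202 CPM against 120 to 184 CPM in wild type (-0.43 ± 0.45, limma adjusted p = 0.517). Over the 6 sick libraries at 44.4 CPM or less, Myh2 ranged from 426 to 3880 CPM and Myh1 from 3649 to 15464 CPM.

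Myhas, which overlaps Myh1 on the opposite strand and reaches toward Myh4 at chr11:67211256-67237573, had 5.99, 6.07, 7.73 and 5.35 CPM in the wild-type quadriceps and 2.27, 3.24 and 3.96 CPM in the sick. It fell there by 1.08 ± 0.26 (limma adjusted p = 0.0203), a call lost without wild-type replicate 3 (0.0547), sick replicate 2 (0.148) or sick replicate 3 (0.0565), and in a fit of all 32 libraries (0.180). Against the healthy quadriceps it had -0.996 ± 0.271 (limma adjusted p = 0.0298, 3 of 7 fits that left out 1 library). Against wild type it was also lower, without a call, in the sick gastrocnemius (-1.57 ± 0.61, limma adjusted p = 0.102) and tibialis (-1.44 ± 0.53, 0.0737). Reads of Myh1 and Myhas where they overlap cannot be told apart without the strand.

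**Figure D4:**
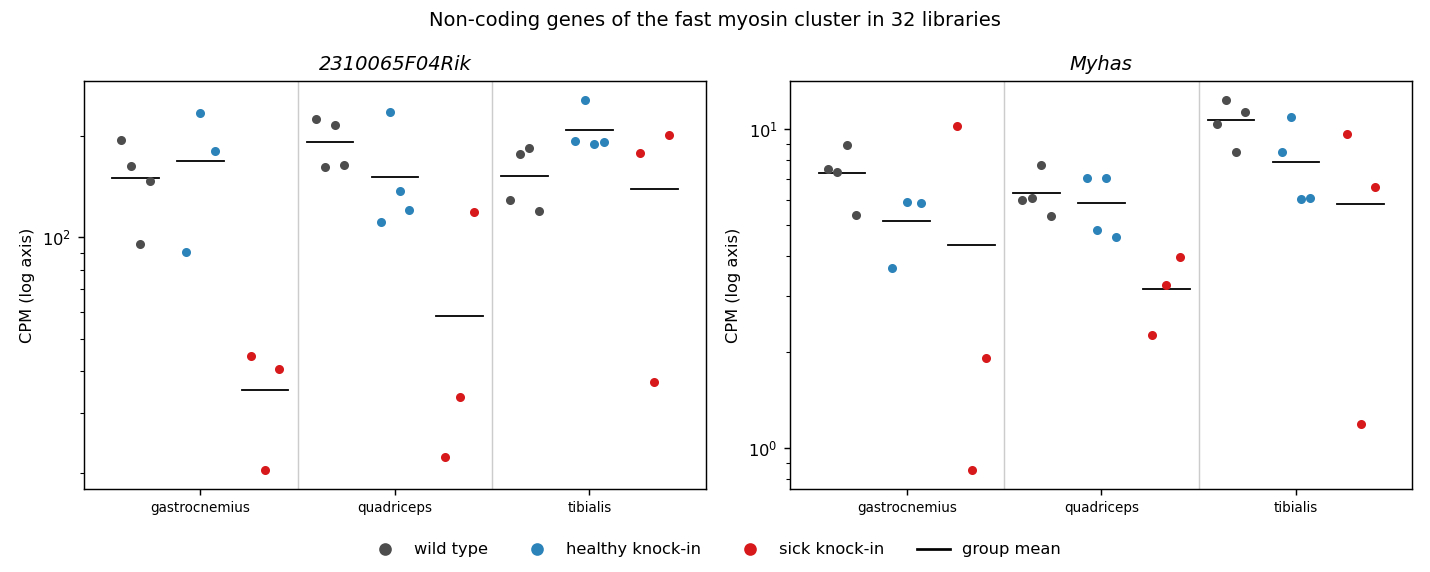
CPM (log axis) of the non-coding genes 2310065F04Rik and Myhas in the 32 libraries by muscle and state, with 1 point per library and a line at the group mean. The 3 sick gastrocnemius libraries lie at 20.3 to 44.4 CPM of 2310065F04Rik, below all wild-type and healthy libraries.

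Across the 32 libraries the closest pairs of members by Pearson r were Myh7 with Myh6 and Myh1 with Myh8. By Spearman correlation and by deviations from group means, Myh6 with Myh7b was closer than Myh1 with Myh8. On log2(CPM + 0.5), Myh7 and Myh6 had a Pearson r of 0.961 (Spearman 0.937), and 0.939 for deviations from the means of their groups. Myh1 and Myh8 had 0.841 (0.862, and 0.745 for deviations), and Myh6 and Myh7b 0.814 (0.879, and 0.819 for deviations). Myh2 had like Pearson values with Myh7b (0.666), Myh6 (0.626), Myh7 (0.604) and Myh1 (0.602). For deviations they differed more, at 0.597, 0.548, 0.509 and 0.76 in the same order. Myh4 ran against Myh1 (-0.511) and Myh2 (-0.502), less so for deviations from group means (-0.207 and -0.296). These are descriptions over libraries that share muscles and states, and reads of near copies can add to them.

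**Figure D5:**
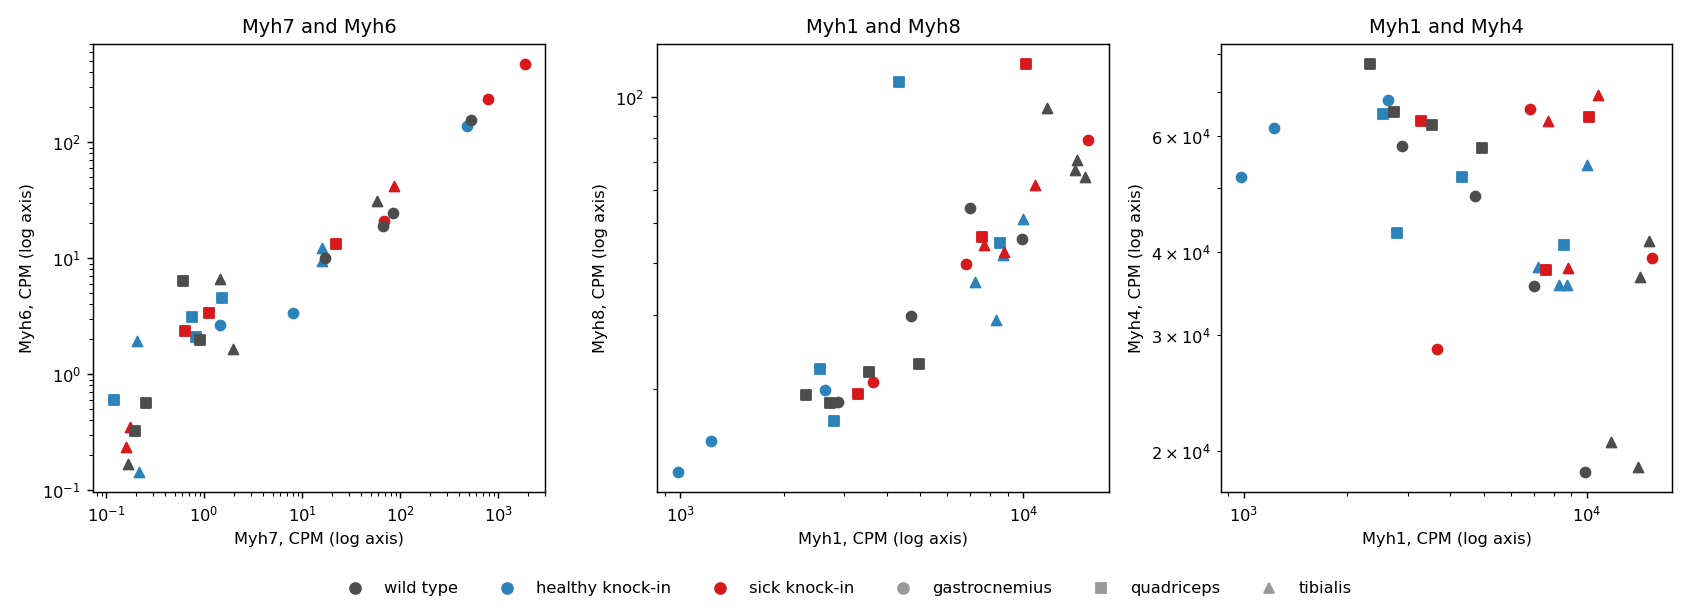
Scatter plots of CPM on log axes in the 32 libraries, for Myh7 and Myh6, Myh1 and Myh8, and Myh1 and Myh4, with colour for state and symbol for muscle. Myh7 and Myh6 lie along 1 diagonal (r = 0.961), Myh1 and Myh8 along a looser one (r = 0.841), and Myh1 and Myh4 slope down (r = -0.511).

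The genes outside the set that followed each member most closely, out of 12484 compared, were mostly sarcomeric for the slow genes and varied for the fast ones. Myh7 was followed by the slow troponins Tnnc1 (r = 0.978) and Tnnt1 (0.963) and by the slow light chain Myl2 (0.958), and Myh6 by Tnnc1 (0.983), Tnni1 (0.970) and Tnnt1 (0.965). Myh2 was followed by Myom3 (0.879), Myoz2 (0.878) and Smtnl1 (0.871), and Myh1 by Mybpc1 (0.912), Got2 (0.874) and Mrps5 (0.867). Got2, a mitochondrial transaminase, also came first for Myh8 (0.789), before Tcaim (0.784) and Smim4 (0.773). Myh4 was followed by Ssr3 (0.883), Eef2k (0.807) and Nup210 (0.800). Myh3 was followed by the embryonic light chain Myl4 (0.769), then Sln (0.653) and Ttc9 (0.648), and Myh7b by Myl10 (0.928), Myh13 (0.866) and Tnnt2 (0.834).

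The authors' deposited table of comparisons lists 9 calls of members at an adjusted p under 0.05, out of 8 genes in 9 comparisons of states. For the gastrocnemius of sick against healthy mice the authors' deposited table gives Myh1 (log2 fold change 2.43, adjusted p = 3.86e-05), Myh3 (1.81, 0.0165), Myh2 (2.34, 0.0226) and Myh8 (1.57, 0.0343), where 12.2% of 25204 genes were called. For sick against wild type the authors' deposited table gives Myh3 in the gastrocnemius (1.57, 0.0289; 12.3% of genes called), Myh8 (1.58, 0.0252) and Myh3 (1.65, 0.0264) in the quadriceps (9.36%), and Myh4 in the tibialis (0.94, 0.0351; 15.2%). For healthy against wild type the authors' deposited table gives Myh1 in the gastrocnemius (-1.92, 0.0322; 0.0714%). In the other 4 comparisons the authors' deposited table calls no member, with 10.2% of genes called for sick against healthy quadriceps, 12% for sick against healthy tibialis, 0.0555% for healthy against wild-type quadriceps and 0.151% for healthy against wild-type tibialis. Of the 4 state calls of the fits above, Myh1 and Myh2 in the gastrocnemius are also called there, and Myh2 and Myh1 in the sick tibialis are not. Signs of uncalled members differed in places. For sick against wild-type tibialis the authors' deposited table gives 0.90 for Myh7, 0.52 for Myh6 and 0.32 for Myh7b. The limma-voom values were -1.05 ± 2.35, -1.21 ± 1.99 and -1.16 ± 1.38 in the same order. The other members had the same sign in both.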

How the data were processed

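The authors deposited 1 table for the series with raw read counts per gene and library, and with their own log2 fold changes and adjusted p-values for 9 comparisons. Cutadapt 1.18, TopHat2 2.1.1, HTSeq 0.6.0, DESeq2 1.22.1 and GRCm38 are named, per the submitters' processing notes; neither annotation release nor strand setting was found there or in the labels. The deposited raw columns hold whole-number counts, but 6252 of 54838 genes carry a mark for a missing value in place of a count; they were left out, and 11359 of the remaining genes had no read. Because of these marks the columns were not classed as counts here, and limma-voom was used in place of edgeR. The genes that were kept had a whole-number count in every library, so the marks do not bar a count model on them.

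The members, gene lists and tests were chosen with earlier results of these data known. In R 4.3.3 with limma 3.58.1, genes with about 10 counts at the median library size in enough libraries and 15 in all were kept. Library totals were TMM-scaled (trims 0.3 and 0.05), 0.5 was added to each count, and voom with robust empirical Bayes was fitted per muscle with 3 states, or over the 12 wild-type libraries, or over all 32. P-values were adjusted over all genes of a comparison (Benjamini-Hochberg, threshold 0.05). The fit was tested on simulated data. Exon lengths are from GENCODE vM21. Shares were tested by exact permutation (Python 3.11.15, scipy 1.17.1). All members are named; from each other list at most 3 called genes with the largest change per comparison were eligible, and those printed were picked after their values were seen, mostly for keeping their call when any 1 library was left out; for likeness the 3 highest correlations are named. Alternatives were another scaling, no low-count filter, other sets of libraries in the fit, a replicate block and leaving out each library.

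All 42 pairs of replicates differed beyond counting noise (chi-square per gene 13.3 to 220). Nothing in the labels says that replicates are separate animals, beyond a stated 4 mice per state, so a p-value here reflects only how these libraries vary, which may be technical. Replicate numbers shared between groups were checked by the correlation of deviations from group means: the wild-type quadriceps deviated with the same-numbered gastrocnemius (0.216 to 0.655) and tibialis (0.259 to 0.617) libraries in all 4 pairs, so the numbers may pair these libraries, a pairing that comes from the data and not from the labels. The values given are from the fit without a block, as designed, with the blocked value beside them where it changes the call of a member. In the other comparisons at least 1 pair did not reach a correlation over 0.1.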

Additional observations from a re-analysis of the deposited data

Results flagged for a closer look

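Of 40 groups of 4 libraries examined over the members, 6 held a library whose gap to the nearest other exceeded Dixon's 95% limit for 4 values. Chance gives about 1 in 20 for independent values with a normal spread. Unlogged CPM was used, which is skewed for some members, and members that follow each other are not independent. The 6 are therefore descriptions and do not show an excess. Myh7 in wild-type gastrocnemius replicate 1 was 526.6 CPM, the next being 85.26, and Myh6 in the same library was 153.9 CPM, the next being 24.59. Myh7 in wild-type tibialis replicate 3 was 58.6 CPM beside 1.995 for the next library. Myh2 was 1885 CPM in wild-type quadriceps replicate 4 (next 548) and 1683 CPM in healthy quadriceps replicate 3 (next 526.7). Myh4 in healthy tibialis replicate 3 was 54323 CPM, the next being 37993.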

How the results depend on the processing

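The members called in a comparison were few, and several counts changed. With median-of-ratios scaling 1 member was called in the wild-type tibialis against the gastrocnemius in place of 0, and 2 stayed the count for sick against wild-type tibialis although Myh4 took the place of Myh1. Without the filter on low counts the numbers were 0 in place of 2 for sick against healthy gastrocnemius (4.61% of all genes tested called, against 14.1%), 1 in place of 2 for sick against wild-type tibialis (6.3% against 18.1%), 1 in place of 0 for healthy against wild-type tibialis (Myh1, -0.68, limma adjusted p = 0.00712), and 1 in place of 0 for the wild-type tibialis against the gastrocnemius. For sick against wild-type tibialis, a fit of the 2 groups alone called 0 (8.84% of all genes) and a fit of all 32 libraries called 1, Myh4 (0.98, adjusted p = 0.0356; 25.5% of all genes), in place of 2. With the replicate number as a block, the fit called 4 for sick against healthy gastrocnemius (11.8% of all genes) and 0 for sick against wild-type tibialis (8.68%). It called 1 for the wild-type quadriceps against the gastrocnemius (1.72%) and 2, Myh7 and Myh8, for the wild-type tibialis against the gastrocnemius (4.79%). The block also turned Myh2 in the sick against wild-type gastrocnemius to -0.10. Mice of different states are different mice, so across states this block is not a pairing. Same-numbered libraries correlated there by -0.0273 to 0.214 (sick and healthy gastrocnemius) and -0.0699 to 0.0309 (sick and wild-type tibialis). Leaving out each library gave 0 to 1 members for sick against wild-type gastrocnemius, 0 to 6 in the quadriceps and 0 to 2 in the tibialis, 0 to 3 for sick against healthy gastrocnemius, 0 to 1, 0 to 3 and 2 to 3 for the wild-type quadriceps against the gastrocnemius, the tibialis against the gastrocnemius and the tibialis against the quadriceps, and 0 in the 8 other comparisons. It turned the sign for sick against wild type of Myh2 (-0.12 to 0.64), Myh1 (-0.092 to 0.90) and Myh4 (-0.15 to 0.47) in the gastrocnemius and of Myh7 in the tibialis (-3.69 to 0.72). Where a call moved, the cause was not tested. Of 624 alternative values of members' log2 fold changes, 553 kept direction and side of the threshold; of 897 for the other named genes, 500 did and 397 lost their call. Of 448 alternative share differences, 22 changed sign, in 10 of the 48 differences. The fits with edgeR and DESeq2 that had been listed were not run, because the columns with marks for missing values were not classed as counts. The genes that were kept would have allowed them. Myh7, Myh6 and Myh7b fell to 1, 2 and 6 reads in the libraries where each was lowest, which limits their folds.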
